A study of Mus musculus with 12 samples.

Results

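Glutathione and antioxidant enzymes were examined in abdominal fat of obese diabetic mice that had received shRNA adenovirus. The set held 46 genes of 23185 tested: all glutathione S-transferases (GSTs) of the alpha, kappa, mu, omega, pi, theta and zeta classes, microsomal GSTs (Mgst), glutathione peroxidases (Gpx) and peroxiredoxins (Prdx) with a matching symbol, and 11 single genes of glutathione synthesis, thioredoxin reduction and the NRF2 response. The symbol alone chose them, and each was read by 1 probe set. By family these were 2 alpha, 7 mu, 2 pi and 8 other cytosolic GSTs, 3 Mgst, 9 Gpx and 4 Prdx genes. The mean of 39 members over the 12 arrays lay above the median of all probe sets, 6.31 log2, and that of 7 did not (Gpx2, Gpx2-ps1, Gpx6, Gsto2, Gstm3, Gstt4 and Slc7a11).

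BKS.Cg-Dock7m +/+ Leprdb/J mice, 12 in all and 12 weeks old, were used. The strain name, which carries the Leprdb mutation of the leptin receptor, is given for every group, controls included. The controls nevertheless carry the genotype label WT. The combined group received 2e9 plaque-forming units (pfu) of LCN13 shRNA virus and 2e9 of TSC22D4 shRNA virus, and no control virus. The TSC22D4 group received 2e9 pfu of TSC22D4 shRNA virus with 2e9 of control shRNA virus, and the LCN13 group 2e9 of LCN13 shRNA virus with 2e9 of control shRNA virus. Controls received 4e9 pfu of control shRNA virus. Every animal thus carried the same total amount of adenovirus. In each comparison with control, an added shRNA and a smaller amount of control virus cannot be told apart. The same holds for the combined group against either single shRNA group, and the groups of the interaction differ in control virus too. Only the TSC22D4 and LCN13 groups received equal amounts of it, 2e9 pfu. Fat was frozen 1 week after injection, and arrays were run for 3 animals of 7 per group, described as representative, so their choice was not random. The labels do not say which cells of the fat the virus entered.

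Glutathione is a small thiol that cells make in steps: a transporter brings in cystine, glutamate-cysteine ligase joins cysteine to glutamate, and glutathione synthetase adds glycine. Peroxidases use it to reduce hydrogen and lipid peroxides, transferases attach it to reactive compounds such as the lipid aldehydes that form in fat, and glutathione reductase regenerates it with NADPH. Thioredoxin and peroxiredoxins form a parallel system, and the transcription factor NRF2 raises many of these genes by binding antioxidant response elements.

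Promoter sequences are shown for 4 members described below, picked by hand. They are the cystine transporter gene Slc7a11, the transferase gene Gstt1, the thioredoxin reductase gene Txnrd1 and the glutamate-cysteine ligase modifier gene Gclm. Txnrd1 and Gclm passed in no comparison. The sequences are from RefSeq for GRCm38.p6, 5′ to 3′, from 250 bases before to 50 after the annotated start. Capitals mark the core of the antioxidant response element, TGACNNNGC, or that of the amino acid response element, TGATGCAA, found on either strand; the searched motifs overlapped in none of the 4.
Slc7a11 (chr3:50443564-50443863, minus strand): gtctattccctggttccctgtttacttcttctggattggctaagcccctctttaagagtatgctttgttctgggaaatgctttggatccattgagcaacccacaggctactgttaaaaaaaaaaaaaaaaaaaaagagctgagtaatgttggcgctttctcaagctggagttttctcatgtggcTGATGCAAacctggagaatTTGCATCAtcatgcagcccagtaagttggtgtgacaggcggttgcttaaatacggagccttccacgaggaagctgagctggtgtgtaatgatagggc
Gstt1 (chr10:75797682-75797981, minus strand): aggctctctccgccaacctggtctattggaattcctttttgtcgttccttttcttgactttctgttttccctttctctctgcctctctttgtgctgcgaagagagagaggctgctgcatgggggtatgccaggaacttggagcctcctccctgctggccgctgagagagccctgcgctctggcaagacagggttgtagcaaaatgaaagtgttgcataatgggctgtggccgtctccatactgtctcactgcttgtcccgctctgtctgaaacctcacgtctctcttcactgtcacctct
Txnrd1 (chr10:82858956-82859255, plus strand, the second of 3 annotated starts): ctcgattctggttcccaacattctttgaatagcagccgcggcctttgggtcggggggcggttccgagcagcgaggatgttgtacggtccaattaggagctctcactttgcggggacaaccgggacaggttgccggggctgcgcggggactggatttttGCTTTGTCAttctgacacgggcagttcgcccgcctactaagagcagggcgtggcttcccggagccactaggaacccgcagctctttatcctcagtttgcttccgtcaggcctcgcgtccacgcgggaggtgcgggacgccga
Gclm (chr3:122245307-122245606, plus strand): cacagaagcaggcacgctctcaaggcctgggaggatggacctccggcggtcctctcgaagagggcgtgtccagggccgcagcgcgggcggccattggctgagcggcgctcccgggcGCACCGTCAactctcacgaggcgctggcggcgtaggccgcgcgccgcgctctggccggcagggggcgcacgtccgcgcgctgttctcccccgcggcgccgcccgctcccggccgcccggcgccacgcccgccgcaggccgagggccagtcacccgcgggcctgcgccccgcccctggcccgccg
The Slc7a11 window held the amino acid response core at -66 and, on the other strand, at -47 relative to the start, and no antioxidant response core. The antioxidant response core was at -92 in Txnrd1 and at -134 in Gclm, and Gstt1 held neither motif. Of the 3 Txnrd1 starts, only the one shown held the core. Of 40 members with an entry, 9 (22.5%) held the antioxidant response core, against 14.0% of 27025 genes with an entry. These 9 were Gclm, Gsta3, Gstm5, Gstm7, Mgst1, Nfe2l2, Prdx1, Srxn1 and Txnrd1. A gene with several starts was counted if any of its promoters held the core. Counted by promoter, 16.7% of 54 member promoters held it, against 12.4% of 32851 promoters of all genes. Slc7a11 alone held the amino acid response core, against 1.03% of all genes. Only the forms given above were searched, so variants of either core would be missed. A match is a run of letters, and binding was not measured.

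The arrays differed in other respects that touch these genes. The mean level of 26 interferon-stimulated genes lay between 8.06 and 8.16 log2 in the combined group, 8.25 and 8.47 in the TSC22D4 group and 8.31 and 8.41 in the LCN13 group, against 10.09 to 10.40 in controls. Neither shRNA target fell detectably: Tsc22d4 differed by -0.07 log2 between the combined group and control (SE 0.08, limma adjusted p = 0.888), and Lcn13, listed as Obp2a and near the lower end of the scale, by -0.01 between the LCN13 group and control (limma adjusted p = 0.858). The mean of 15 mesothelial markers was 8.59, 8.60 and 8.00 log2 in LCN13 replicates 5, 6 and 8, against 7.82 to 8.12 on the other 9 arrays. Of these markers 4 (Dpp4, Krt19, Krt8 and Rspo1) had all 3 LCN13 arrays, replicate 8 included, above the other 9. Of 21 liver markers 17 lay at or under the median of all probe sets. The mean of the 21 was 6.78, 6.76 and 6.58 on the LCN13 arrays, against 6.37 to 6.86 on the other 9. Single liver markers differed more: Alb lay at 11.12, 11.07 and 9.91 log2 in LCN13 replicates 5, 6 and 8. It lay at 11.46 on combined-group replicate 13 and at 7.98 to 9.75 on the rest. Trf, the brightest liver marker, lay between 12.61 and 12.97 on all arrays. Of the 21, only 1, Fga, had all 3 LCN13 arrays above the other 9. The part of these markers in the results below was not tested. Genes known from the epididymis, Gpx5 among them, were high on TSC22D4 replicate 11 and combined-group replicate 13, and values without these arrays are given beside the results. Markers of adipocytes were high throughout, at a mean of 12.04 to 12.19 log2 over 15 genes. In whole tissue, fewer cells of a type and less RNA per cell cannot be told apart.

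Slc7a11, the cystine-importing subunit of the cystine-glutamate antiporter, was higher in the LCN13 group than in controls. The combined group, which also received LCN13 shRNA virus, was not. It lay at 6.14, 6.15 and 6.12 log2 in the combined group, 6.11, 6.13 and 6.18 in the TSC22D4 group and 6.54, 6.49 and 6.38 in the LCN13 group, against 5.91, 6.19 and 6.13 in controls. All 3 LCN13 arrays were above the other 9, and the other groups overlapped. LCN13 against control gave a log2 difference of 0.39 (SE 0.07, limma adjusted p = 0.0197), a 1.31-fold higher level. Over the 4 groups Slc7a11 was the 1 member that passed the moderated F test (limma adjusted p = 0.0445), against 1.61% of all genes. In the direct comparison the TSC22D4 group was 0.33 lower than the LCN13 group (limma adjusted p = 0.0536), and the combined group 0.34 lower (limma adjusted p = 0.169), neither of which passed. The difference between TSC22D4 and LCN13 passed with trend and robust moderation (limma adjusted p = 0.0291), with array weights (limma adjusted p = 0.0145) and without LCN13 replicate 8, control replicate 1 or control replicate 2 (limma adjusted p of 0.0363, 0.0206 and 0.0486 in turn). The level is near the lower end of the scale, where differences are compressed. The call against control was lost without LCN13 replicate 5 or 6 (limma adjusted p up to 0.0851), and without both the difference was 0.31 (limma adjusted p = 0.339). Without TSC22D4 replicate 11 and combined-group replicate 13 it was 0.39 (limma adjusted p = 0.0713). The arrays of the 2 groups alone also ended the call against control (limma adjusted p = 0.203). The F test call was lost in 9 of 12 fits without 1 array (limma adjusted p up to 0.167), all but those without control replicate 1, control replicate 2 or LCN13 replicate 8. Cyclic loess ended the F test call too (limma adjusted p = 0.0563).

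Gsr, Txn1, Txnrd1 and Gsta4, 4 other members, also had the 3 LCN13 arrays above the other 9. In all, 5 of 46 members did so, against 2.04% of all genes and 4 of the 15 mesothelial markers, whose part in these values was not tested. Gsr, glutathione reductase, lay at 9.22, 9.18 and 9.19 log2 in the combined group, 9.18, 9.27 and 9.17 in the TSC22D4 group and 9.50, 9.55 and 9.41 in the LCN13 group, against 9.17, 9.27 and 9.40 in controls. Txn1, thioredoxin, lay at 11.37, 11.40 and 11.36 log2 in the combined group, 11.28, 11.30 and 11.30 in the TSC22D4 group and 11.48, 11.65 and 11.42 in the LCN13 group, against 11.36, 11.24 and 11.12 in controls. Txnrd1, which reduces thioredoxin with NADPH, was at 9.72, 9.73 and 9.74 log2 in the LCN13 group and between 9.30 and 9.69 on the other 9 arrays. The lowest LCN13 array of Gsr was 9.41 and the highest array of another group 9.40, so the gap is small. LCN13 against control, the differences were 0.20 for Gsr (limma adjusted p = 0.157), 0.28 for Txn1 (limma adjusted p = 0.0936) and 0.22 for Txnrd1 (limma adjusted p = 0.279), and none of these passed. With array weights Gsr (limma adjusted p = 0.0414) and Txn1 (limma adjusted p = 0.0284) passed, as did Gsta4 (limma adjusted p = 0.0197). Without LCN13 replicates 5 and 6, the remaining array differed from control by 0.12 for Gsr, 0.18 for Txn1 and 0.23 for Txnrd1.

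**Figure D1:**
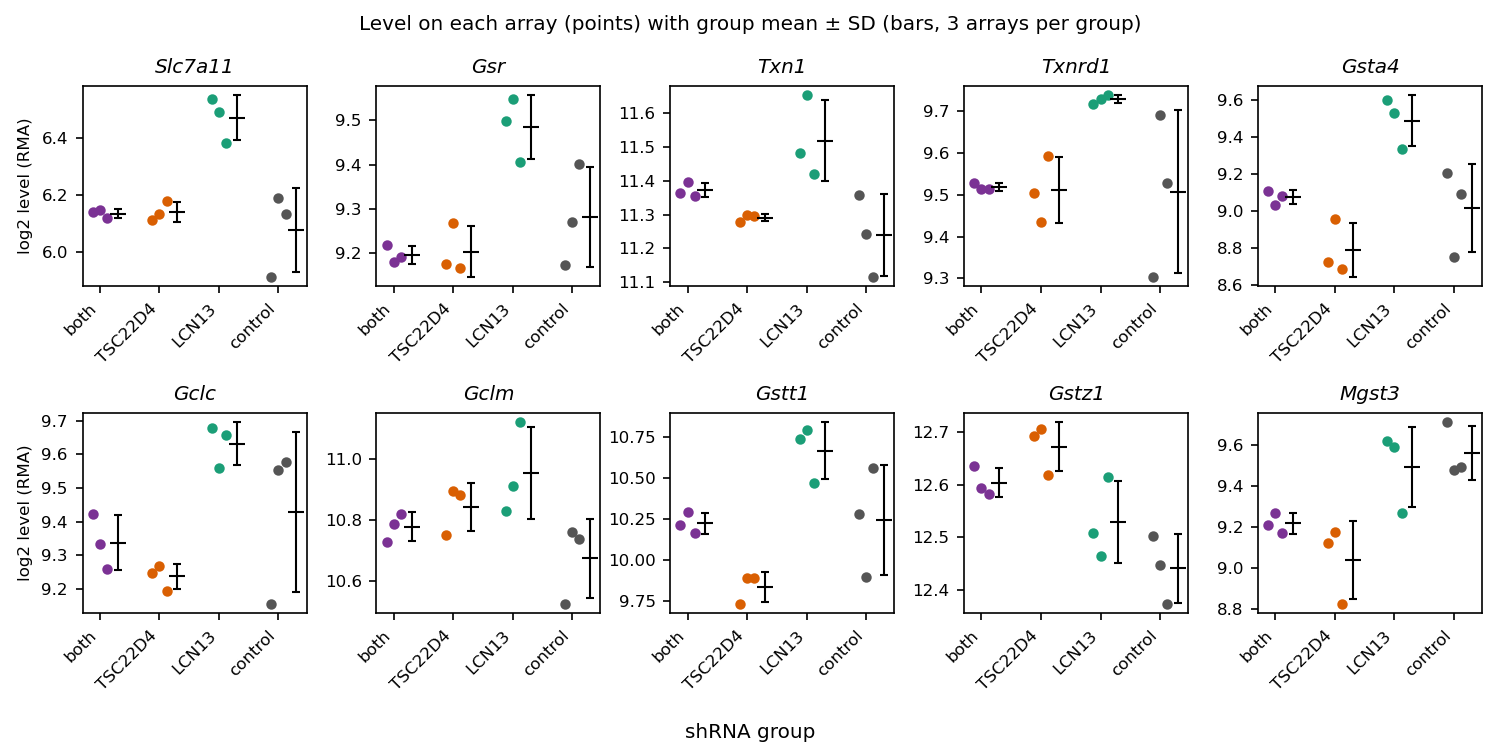
Log2 levels (vertical axis, RMA values) of 10 members on each array, by shRNA group (horizontal axis; both, combined LCN13 and TSC22D4 shRNA), with bars for the group mean and SD over 3 arrays. Each vertical axis has its own range. The 3 LCN13 arrays of Slc7a11, Gsr, Txn1, Txnrd1 and Gsta4 lie above the other 9, and those of Gstt1 in the TSC22D4 group lie below the other 9.

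The enzymes of glutathione synthesis were highest on average in the LCN13 group without passing against control. Gclc, the catalytic subunit of glutamate-cysteine ligase, lay at 9.42, 9.33 and 9.26 log2 in the combined group, 9.25, 9.27 and 9.20 in the TSC22D4 group and 9.68, 9.56 and 9.66 in the LCN13 group, against 9.16, 9.55 and 9.58 in controls. Its TSC22D4 and LCN13 arrays did not overlap (difference -0.39, SE 0.10, limma adjusted p = 0.0935), while control replicate 1 was well under the other controls. Without that array Gclc passed both in TSC22D4 against LCN13 (limma adjusted p = 0.0206) and in TSC22D4 against control (-0.33, limma adjusted p = 0.024). In TSC22D4 against LCN13 Gclc also passed with array weights (limma adjusted p = 0.0248) and with the arrays of the 2 groups alone (limma adjusted p = 0.0465). Gclm, its modifier subunit, averaged 10.78 ± 0.05 log2 in the combined group, 10.84 ± 0.08 in the TSC22D4 group and 10.95 ± 0.15 in the LCN13 group, against 10.67 ± 0.13 in controls (SD, n = 3 each). All 3 LCN13 arrays of Gclm lay above the controls (0.28, limma adjusted p = 0.181). Gss, glutathione synthetase, ranged from 7.53 to 7.93 with overlapping groups, and its limma F test adjusted p was 0.759.

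The NRF2 gene itself and its best-known targets varied within groups. Nfe2l2, which codes for NRF2, lay between 11.37 and 11.57 log2 on all arrays (limma F test adjusted p = 0.746). Nqo1, a quinone reductase and common readout of NRF2, lay between 6.11 and 6.47 (limma F test adjusted p = 0.904). Hmox1, the haem-degrading enzyme, lay at 10.82, 10.91 and 10.84 log2 in the combined group, 11.27, 11.04 and 11.36 in the TSC22D4 group and 10.84, 10.75 and 11.06 in the LCN13 group, against 10.51, 11.79 and 10.90 in controls. The controls of Hmox1 held both the lowest and the highest of all 12 arrays. Srxn1, which repairs overoxidized peroxiredoxins, was 9.63, 9.65 and 9.56 log2 in the combined group, below 9.97, 9.84 and 10.07 in the LCN13 group and 9.85, 9.88 and 9.81 in the TSC22D4 group without passing (-0.35 against LCN13, limma adjusted p = 0.322). Control arrays of Srxn1, at 9.67, 10.10 and 9.62, overlapped all groups.

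Among the cytosolic GSTs, Gsta4 and Gstt1 differed between the single shRNA groups. Gsta4, an alpha class enzyme that conjugates 4-hydroxynonenal, a product of lipid peroxidation, lay at 9.11, 9.03 and 9.08 log2 in the combined group, 8.73, 8.96 and 8.69 in the TSC22D4 group and 9.60, 9.53 and 9.33 in the LCN13 group, against 9.20, 8.75 and 9.09 in controls. TSC22D4 against LCN13, it fell by 0.70 log2 (SE 0.12, limma adjusted p = 0.0381), which is 0.616 of the LCN13 level. Gstt1, of the theta class, lay at 10.21, 10.29 and 10.17 log2 in the combined group, 9.73, 9.89 and 9.89 in the TSC22D4 group and 10.74, 10.79 and 10.47 in the LCN13 group, against 10.28, 9.90 and 10.56 in controls. TSC22D4 against LCN13, Gstt1 fell by 0.83 (SE 0.15, limma adjusted p = 0.0401), and its 3 TSC22D4 arrays were below all 9 others, as in 1.20% of all genes. Of 46 members 2 passed in this comparison, both lower, against 0.574% of all genes lower and 1.03% in either direction. The control means of both genes lay between those of the 2 groups: against control Gsta4 was at 0.47 with LCN13 shRNA (limma adjusted p = 0.114) and -0.23 with TSC22D4 shRNA (limma adjusted p = 0.526), and Gstt1 at 0.42 (limma adjusted p = 0.262) and -0.41 (limma adjusted p = 0.304). These differences from control share the control arrays.

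The Gsta4 call in TSC22D4 against LCN13 was lost without LCN13 replicate 5 or 6, any TSC22D4 array, or combined-group replicate 13 or 14 (limma adjusted p up to 0.130, differences from -0.78 to -0.64). That of Gstt1 was lost without these or combined-group replicate 16 (limma adjusted p up to 0.143, differences from -0.93 to -0.76). LCN13 replicate 8 had the lowest value of its group in both genes, at 9.33 for Gsta4 and 10.47 for Gstt1, and also the lowest mesothelial mean of its group. With that array alone, the differences were -0.54 for Gsta4 (limma adjusted p = 0.525) and -0.63 for Gstt1 (limma adjusted p = 0.553). Without TSC22D4 replicate 11 and combined-group replicate 13, neither passed (limma adjusted p of 0.1 for Gsta4 and 0.128 for Gstt1). Both calls were also lost with the arrays of the 2 groups alone (limma adjusted p of 0.0612 for Gsta4 and 0.0511 for Gstt1).

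**Figure D2:**
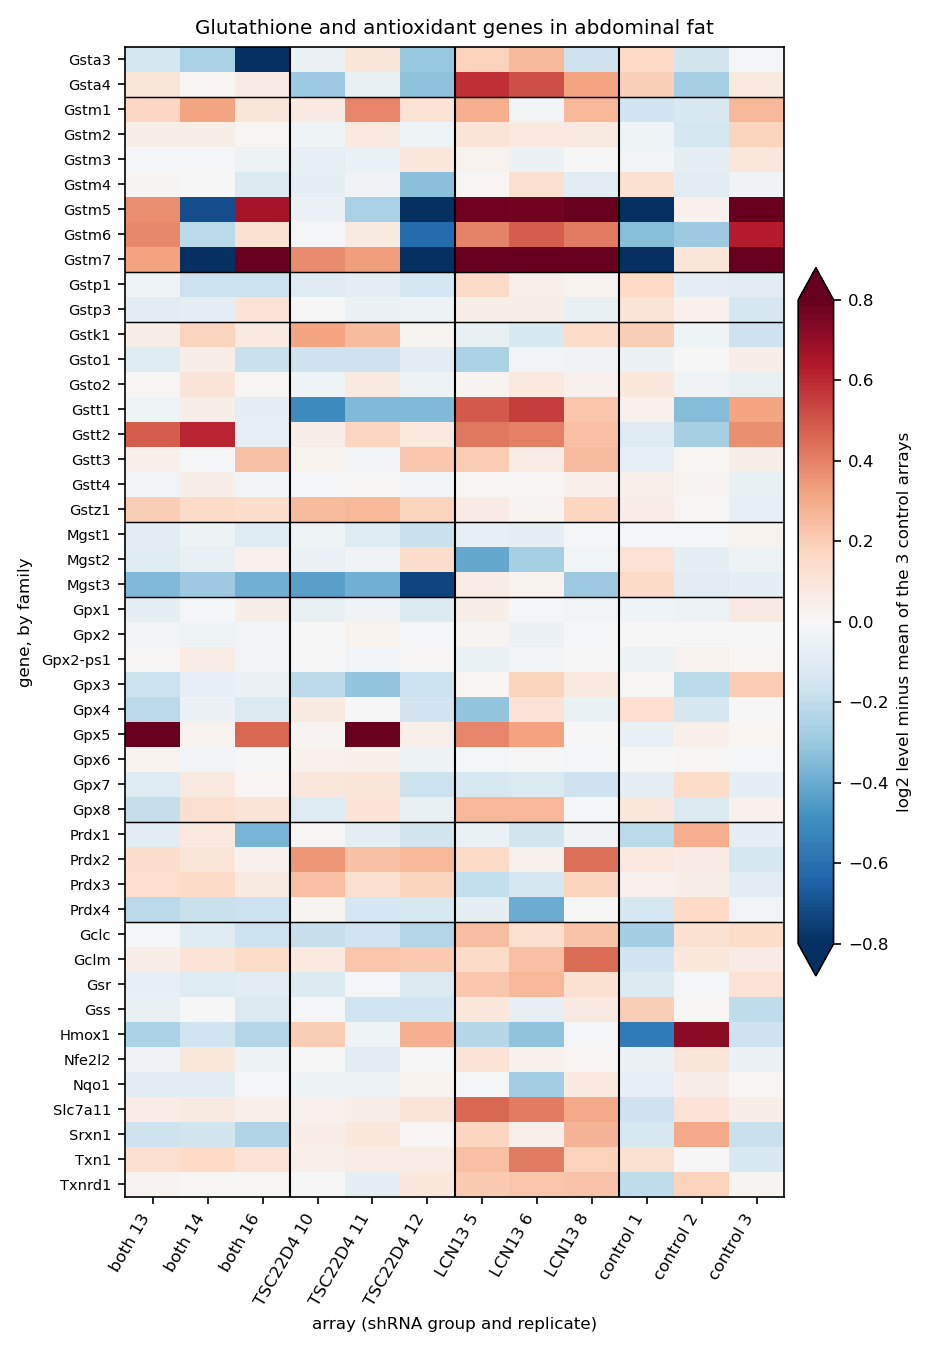
Log2 level of each of the 46 members (rows, by family) minus the mean of the 3 control arrays, for the 12 arrays (columns, by shRNA group; both, combined shRNAs). Red is higher and blue lower than the control mean, and the colours end at the limits of the bar. The LCN13 columns are mostly red for Gsta4, Gstm5 to Gstm7, Gstt1, Gsr, Slc7a11 and Txn1, and Gpx5 is far above the others on TSC22D4 replicate 11 and combined-group replicate 13.

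Gstz1, the zeta class enzyme that also acts in tyrosine breakdown as maleylacetoacetate isomerase, was higher with TSC22D4 shRNA than in control. It lay at 12.63, 12.59 and 12.58 log2 in the combined group, 12.69, 12.71 and 12.62 in the TSC22D4 group and 12.51, 12.46 and 12.62 in the LCN13 group, against 12.50, 12.45 and 12.37 in controls. TSC22D4 against control gave 0.23 (SE 0.04, limma adjusted p = 0.0473), and it was the 1 member of 46 that passed there, against 1.17% of all genes. The combined group was also above all 3 controls, at 0.16 (SE 0.04, limma adjusted p = 0.159). All LCN13 arrays lay below the TSC22D4 arrays, replicate 8 by a small gap (0.14, limma adjusted p = 0.149). The call was lost in 9 of 12 fits without 1 array (limma adjusted p up to 0.163), all but those without control replicate 1 or LCN13 replicate 6 or 8, and also without both TSC22D4 replicate 11 and combined-group replicate 13 (limma adjusted p = 0.221). It was lost too with the filter on dim probe sets (limma adjusted p = 0.0675), with cyclic loess (limma adjusted p = 0.0703) and with the arrays of the 2 groups alone (limma adjusted p = 0.132).

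Mu class transferases varied widely between animals of a group. Gstm5 lay at 9.92, 8.83 and 10.21 log2 in the combined group, 9.50, 9.28 and 8.51 in the TSC22D4 group and 10.32, 10.31 and 10.72 in the LCN13 group, against 8.68, 9.58 and 10.38 in controls. Gstm7 lay at 9.89, 8.61 and 10.78 log2 in the combined group, 9.95, 9.90 and 8.70 in the TSC22D4 group and 10.43, 10.65 and 10.92 in the LCN13 group, against 8.59, 9.66 and 10.44 in controls. Gstm6, at lower values, ranged from 6.04 to 7.28. Control replicate 1, TSC22D4 replicate 12 and combined-group replicate 14 held the 3 lowest values of both Gstm5 and Gstm7, and all LCN13 arrays were high. The SD within groups was 0.63 for Gstm5, 0.81 for Gstm7 and 0.36 for Gstm6, against a median of 0.12 over all members and 0.06 over all genes. LCN13 against control, Gstm5 was at 0.91 (SE 0.47, limma adjusted p = 0.485) and Gstm7 at 1.10 (SE 0.61, limma adjusted p = 0.513). TSC22D4 against LCN13, Gstm5 was at -1.36 with no overlap (limma adjusted p = 0.187). These genes all lie on chromosome 3 and are similar in sequence, so their probe sets may share signal, which was not measured, and single mu class members are uncertain.

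**Figure D3:**
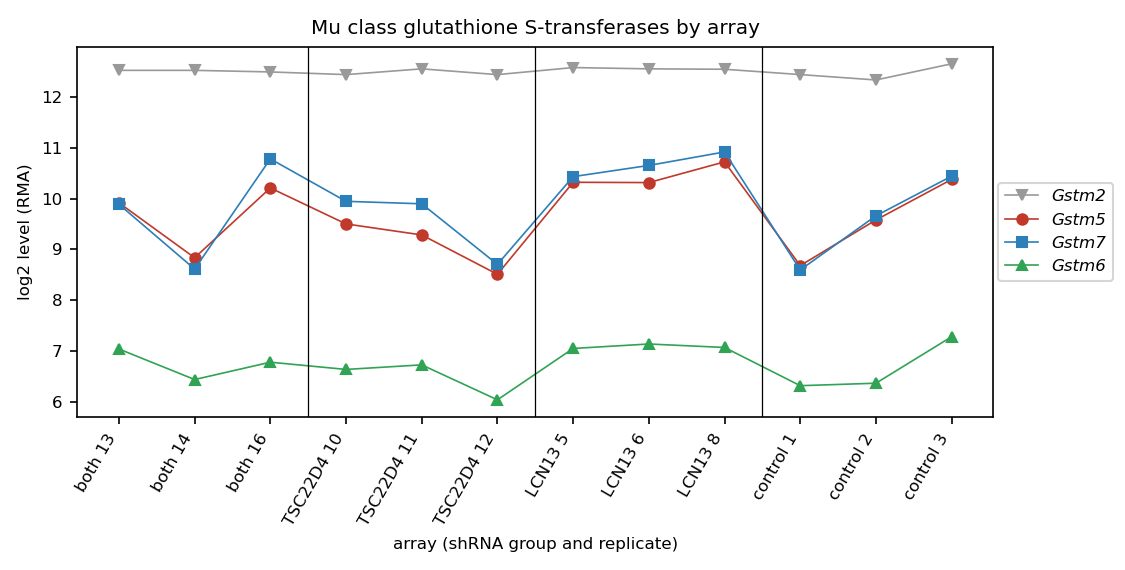
Log2 level (vertical axis, RMA values) of 4 mu class transferase genes on the 12 arrays (horizontal axis, by shRNA group and replicate; both, combined shRNAs). Gstm5, Gstm6 and Gstm7 go up and down on much the same arrays within groups, while Gstm2 stays between 12.34 and 12.65.

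The other mu genes varied less within groups than Gstm5, Gstm6 and Gstm7. Gstm2 ranged from 12.34 to 12.65, Gstm4 from 8.20 to 8.66, Gstm1 from 6.45 to 6.98, and Gstm3 stayed near the lower end at 5.79 to 5.95. None passed in any comparison, and limma F test adjusted p-values of these 4 ran from 0.667 for Gstm4 to 0.991 for Gstm3. Gsta3, the other alpha class gene, ranged from 6.49 on combined-group replicate 16 to 7.59 (combined group against control -0.41, limma adjusted p = 0.48). Gstp1, a pi class enzyme that is abundant in many tissues, lay between 11.71 and 12.04, and its combined group was 0.20 below the LCN13 group without overlap (limma adjusted p = 0.34). Gstp3 ranged from 6.28 to 6.52, and Gstt4 from 5.83 to 5.93 at the lower end. Gstk1, Gsto1, Gsto2, Gstt2 and Gstt3 had limma F test adjusted p-values of 0.569 to 0.847.

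The microsomal transferases handle lipophilic compounds and lipid hydroperoxides in membranes. Mgst3, a glutathione transferase and peroxidase, lay at 9.21, 9.27 and 9.17 log2 in the combined group, 9.12, 9.18 and 8.82 in the TSC22D4 group and 9.62, 9.59 and 9.27 in the LCN13 group, against 9.71, 9.48 and 9.49 in controls. Its combined and TSC22D4 arrays were all below the controls. Mgst3 differed from control by -0.52 with TSC22D4 shRNA (SE 0.12, limma adjusted p = 0.0831) and by -0.34 with both shRNAs (SE 0.12, limma adjusted p = 0.271), and neither passed. It passed in TSC22D4 against control with trend and robust moderation (limma adjusted p = 0.0333) and with the filter on dim probe sets (limma adjusted p = 0.0307). Mgst1 lay in a narrow range, 12.11 to 12.32, also with all combined and TSC22D4 arrays below the controls (-0.11 with TSC22D4 shRNA, limma adjusted p = 0.275). Mgst2 lay at 6.04, 6.19 and 6.43 log2 in the LCN13 group, the lowest of all arrays being replicates 5 and 6, and between 6.35 and 6.59 on the other 9 arrays.

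The glutathione peroxidases had 0 members passing limma in any of the 8 comparisons, and Gpx3 alone had an unadjusted p under 0.05, in TSC22D4 against control, TSC22D4 against LCN13 and the F test. Gpx3, the secreted peroxidase of plasma that fat also makes, lay at 12.25, 12.35 and 12.37 log2 in the combined group, 12.21, 12.10 and 12.25 in the TSC22D4 group and 12.43, 12.59 and 12.50 in the LCN13 group, against 12.43, 12.20 and 12.62 in controls. TSC22D4 against LCN13, Gpx3 was at -0.32 with no overlap (SE 0.09, limma adjusted p = 0.128). Gpx1, the abundant cytosolic enzyme, ranged from 11.24 to 11.42, Gpx7 from 7.68 to 8.00 and Gpx8 from 11.47 to 11.93, with Gpx7 and Gpx8 being enzymes of the endoplasmic reticulum. Gpx4, which reduces lipid peroxides in membranes and protects from ferroptosis, was listed at 6.27 to 6.71. Gpx2, its pseudogene Gpx2-ps1 and Gpx6 lay between 5.70 and 5.87 on all arrays, at the lower end of the scale.

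Gpx5, a secreted peroxidase known from the epididymis, stood apart on a pair of arrays. It lay at 9.12, 5.79 and 6.23 log2 in the combined group, 5.79, 11.41 and 5.81 in the TSC22D4 group and 6.16, 6.09 and 5.76 in the LCN13 group, against 5.71, 5.81 and 5.78 in controls. TSC22D4 replicate 11 and combined-group replicate 13 were high, combined-group replicate 16 and LCN13 replicates 5 and 6 were slightly above the rest, and the other arrays were at the lower end of the scale. The replicates disagreed widely, and Gpx5 did not pass (1.90 in TSC22D4 against control, SE 1.40, limma adjusted p = 0.69). Without those arrays, an alternative chosen after the data were seen, its difference was 0.03. In all, 17 genes, Gpx5 included, lay at least 1 log2 higher on TSC22D4 replicate 11 than on each of the 10 arrays other than these 2, and 12 of the 17 lay higher on combined-group replicate 13 than on those 10 as well. The 17 include Lcn8, Lcn9 and Lcn10 of the epididymal lipocalins, the beta-defensins Defb20, Defb25, Defb47 and Defb48, Adam7 and Cst11. Lcn8 was 10.87 on TSC22D4 replicate 11 and 6.72 on combined-group replicate 13, against 5.91 to 6.42 on the other arrays. Defb20 was 10.37 and 7.81 on these, against 5.82 to 6.07. These genes and Gpx5 were singled out after their values were seen, and the labels give the tissue of every array only as abdominal fat.

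**Figure D4:**
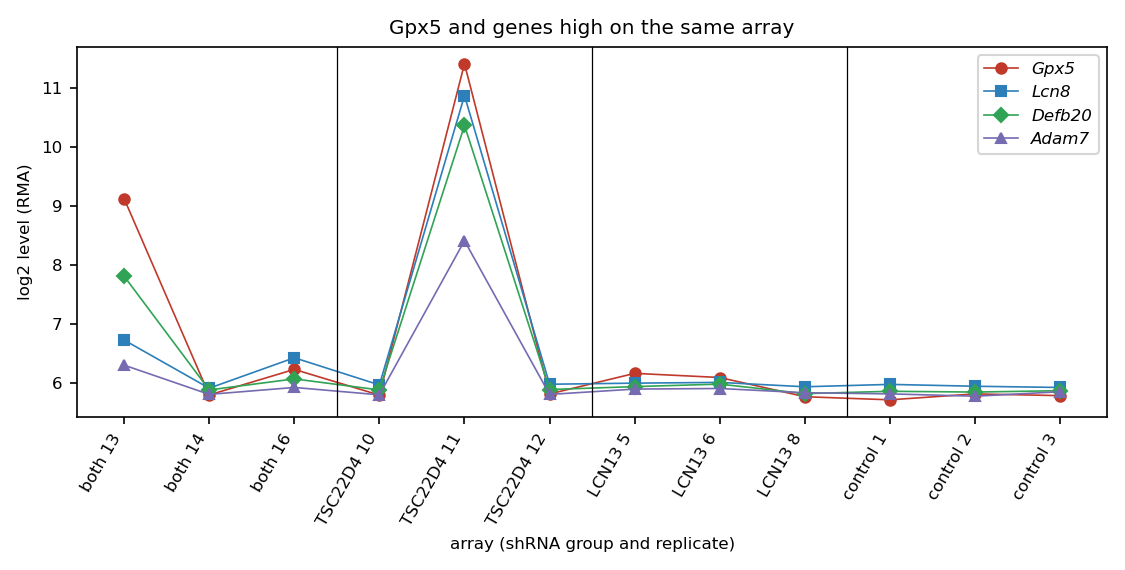
Log2 level (vertical axis, RMA values) of Gpx5 and of Lcn8, Defb20 and Adam7 on the 12 arrays (horizontal axis, by shRNA group and replicate; both, combined shRNAs). All 4 genes peak on TSC22D4 replicate 11, and Gpx5 and Defb20 are also high on combined-group replicate 13, at 9.12 and 7.81.

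Peroxiredoxins reduce hydrogen peroxide with electrons from thioredoxin. Prdx2, which is also abundant in red blood cells, lay at 10.25, 10.20 and 10.14 log2 in the combined group, 10.46, 10.34 and 10.38 in the TSC22D4 group and 10.26, 10.14 and 10.55 in the LCN13 group, against 10.19, 10.17 and 9.97 in controls. All TSC22D4 arrays of Prdx2 lay above the controls (0.28, SE 0.10, limma adjusted p = 0.273). The mean of 7 red blood cell markers was 6.94 to 7.07 log2 in the combined group, 6.63 to 6.82 in the TSC22D4 group and 6.37 to 6.83 in the LCN13 group, against 6.32 to 6.81 in controls, with Hbb-bs among 5 markers at or under the median of all probe sets. Their part in the Prdx2 values was not tested. Prdx3, the mitochondrial enzyme, lay at 11.15, 11.17 and 11.09 log2 in the combined group, 11.26, 11.14 and 11.19 in the TSC22D4 group and 10.81, 10.88 and 11.19 in the LCN13 group, against 11.05, 11.07 and 10.92 in controls, with the combined and TSC22D4 arrays above the controls and LCN13 replicates 5 and 6 lowest. Without LCN13 replicate 8 it passed in TSC22D4 against LCN13 (0.35, limma adjusted p = 0.0206), against 0.24 with all arrays (limma adjusted p = 0.205). Prdx1 ranged from 10.03 to 10.69 and Prdx4 from 6.32 to 6.88, with limma F test adjusted p-values of 0.942 and 0.657.

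Counts over the members stand here beside those over all genes. LCN13 against control, 1 of 46 members passed limma, Slc7a11, against 1.44% of all genes. The median log2 difference of the members was 0.06, against 0.0040 over all genes, and 7 members (15.2%) had all 3 LCN13 arrays above all 3 controls, against 8.75% of genes. The 1 member fully below, Gpx7, compares with 6.93% of genes. TSC22D4 against control, the median was -0.01, against -0.0022 over all genes, with 3 members fully above and 4 fully below, against 8.27% and 8.38% of genes. For the combined group against control 0 members passed limma and 2 had an unadjusted p under 0.05, against 1.34% of genes passing and 11.0% at that unadjusted p. There 2 members, Gstz1 and Prdx3, lay fully above and 4 fully below, against 7.72% and 7.22% of genes. The combined group against LCN13 had 0 members passing limma and 10 (21.7%) with an unadjusted p under 0.05, against 0.00863% and 10.7% of genes. In that comparison 14 members (30.4%) lay fully below the LCN13 arrays, against 9.22% of genes, among them Slc7a11, Gsr, Txn1, Txnrd1, Gsta4, Gclc, Gclm, Srxn1 and Gstt1. Gpx7 was the 1 member fully above, against 7.31% of genes. TSC22D4 against LCN13, 16 members (34.8%) lay fully below, against 15.0% of genes, and 1, Gstz1, fully above, against 10.1%. These comparisons share the LCN13 arrays, so their counts are not independent.

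The combined group against TSC22D4 had 0 members passing limma and 2 at an unadjusted p under 0.05, with 0% of all genes passing and 6.91% at that unadjusted p. In it 4 members (Gpx3, Gsta4, Gstt1 and Txn1) lay fully above and 5 fully below, against 7.76% and 6.76% of genes. The interaction is the TSC22D4 difference in mice given LCN13 shRNA minus that in mice without it, both coming with less control virus. Of the members 0 passed it with limma and 6 (13.0%) had an unadjusted p under 0.05, against 0.397% and 7.08% of genes. Slc7a11 had an interaction of -0.40 (SE 0.09, limma adjusted p = 0.206), Prdx2 of -0.40 (limma adjusted p = 0.531) and Gclm of -0.35 (limma adjusted p = 0.527). With all arrays, a difference of the LCN13 shRNA effect between mice with and without the TSC22D4 shRNA was therefore not called for any member. That does not show that there is none. Without control replicate 2, Srxn1 passed the interaction (-0.54, limma adjusted p = 0.0494).

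**Figure D5:**
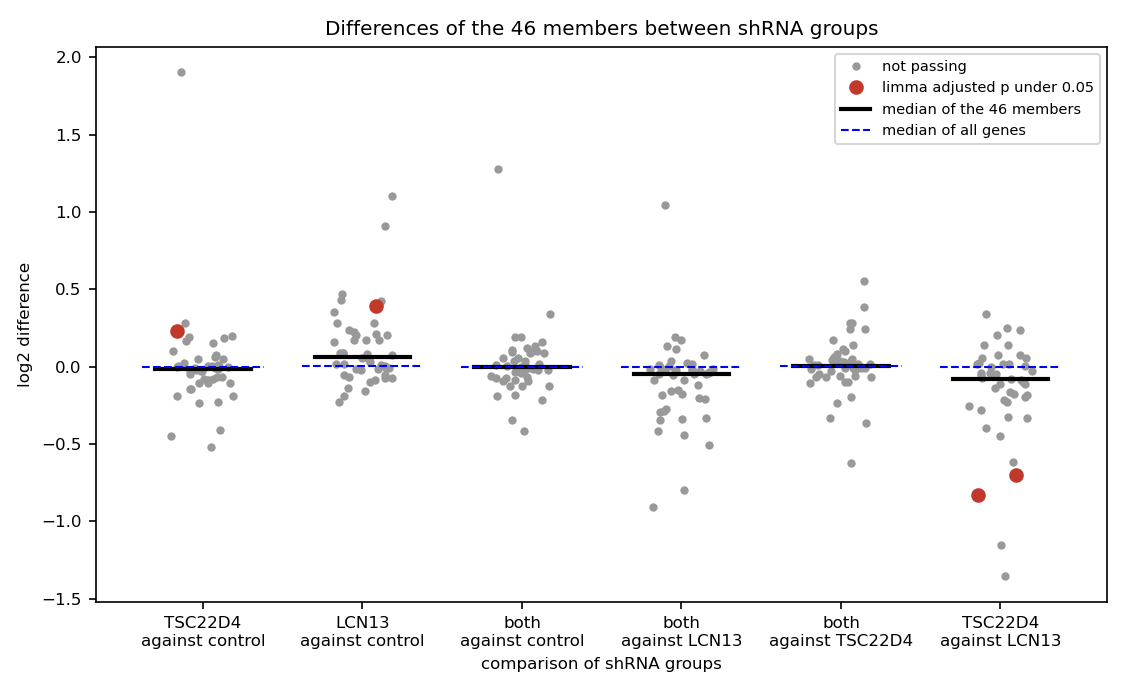
Log2 difference (vertical axis) of each of the 46 members (points, spread sideways for legibility) in 6 comparisons of shRNA groups (horizontal axis; both, combined shRNAs). Red points passed limma at an adjusted p under 0.05, black bars are the members' medians and dashed bars those of all genes. The members' median is 0.06 in LCN13 against control and -0.08 in TSC22D4 against LCN13, and the highest point in TSC22D4 against control is Gpx5 at 1.90.

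Related genes were examined by lists. Of 37 other antioxidant enzymes and redoxins, 2 (5.41%) passed in TSC22D4 against control, both lower, against 1.17% of all genes. In LCN13 against control 0 passed limma and 4 (10.8%) had an unadjusted p under 0.05, against 1.44% and 12.6% of all genes. In the combined group against control 1 (2.70%) passed, lower, against 1.34% of all genes. Glrx, glutaredoxin, which removes glutathione from protein thiols, lay at 7.56, 7.56 and 7.66 log2 in the combined group, 7.68, 7.70 and 7.66 in the TSC22D4 group and 7.86, 7.92 and 7.80 in the LCN13 group, against 7.94, 7.99 and 8.18 in controls. It fell by 0.36 with TSC22D4 shRNA (SE 0.06, limma adjusted p = 0.0246) and by 0.44 with both shRNAs (SE 0.06, limma adjusted p = 0.00672), and passed the F test (limma adjusted p = 0.0201). The Glrx call with both shRNAs held without each array in turn (limma adjusted p up to 0.0399). It was lost without both TSC22D4 replicate 11 and combined-group replicate 13 (-0.42, limma adjusted p = 0.0785), as were the other calls of listed genes given here and below (limma adjusted p of 0.0842 to 0.178). That with TSC22D4 shRNA was lost without control replicate 2 or any TSC22D4 array (limma adjusted p up to 0.0918). With the arrays of the 2 groups alone neither Glrx call held (limma adjusted p of 0.115 with both shRNAs and 0.135 with TSC22D4 shRNA). Txnip, which binds and inhibits thioredoxin, fell by 0.27 with TSC22D4 shRNA (SE 0.04, limma adjusted p = 0.0172), to 12.85, 12.73 and 12.83 log2 in the TSC22D4 group, against 13.09, 13.04 and 13.09 in controls. That call was lost without control replicate 1 or 3 or TSC22D4 replicate 11 (limma adjusted p up to 0.0628). It was lost too with the arrays of the 2 groups alone (limma adjusted p = 0.0778). The median difference of the list from control was 0.07 with TSC22D4 shRNA, 0.03 with LCN13 shRNA and 0.02 with both.

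Of 37 genes that control NRF2 or are counted among its other targets, 1 (2.70%) passed in TSC22D4 against control, 0 in LCN13 against control and 2 (5.41%) in the combined group against control, where 1.17%, 1.44% and 1.34% of all genes passed. Blvra, a biliverdin reductase, fell by 0.22 with TSC22D4 shRNA (SE 0.03, limma adjusted p = 0.015), to 8.20, 8.19 and 8.13 log2 in the TSC22D4 group, against 8.41, 8.44 and 8.34 in controls. It was lower too in TSC22D4 against LCN13 (-0.21, limma adjusted p = 0.036). With both shRNAs Hmox2, the constitutive haem oxygenase, fell by 0.29 (SE 0.05, limma adjusted p = 0.0288), and the quinone reductase gene Nqo2 rose by 0.19 (SE 0.04, limma adjusted p = 0.0468). Leaving out 1 array ended the call of Blvra against control in 3 of 12 fits (limma adjusted p up to 0.059). These were the fits without control replicate 2 or TSC22D4 replicate 11 or 12. Leaving out 1 array also ended that of Blvra against LCN13 in 6, of Hmox2 in 7 and of Nqo2 in 11 (limma adjusted p up to 0.126, 0.116 and 0.136 in turn). Trend and robust moderation ended both Blvra calls and that of Nqo2 (limma adjusted p of 0.134 to 0.313). The dim filter and cyclic loess each ended those of Blvra against LCN13 and Nqo2 (limma adjusted p up to 0.104). With the arrays of the 2 groups alone all of these calls were lost (limma adjusted p of 0.0511 to 0.253). In LCN13 against control 13 of the 37 had an unadjusted p under 0.05, or 35.1%, against 12.6% of all genes, with a median difference of 0.02.

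The supply lines gave single calls. Of 26 genes of glutathione turnover and precursors, 0 passed limma in any comparison with control, at an unadjusted p under 0.05 for 6 in each, against 11.0% to 12.6% of all genes. Cth, cystathionine gamma-lyase, which makes cysteine from cystathionine, was 9.11, 9.20 and 8.85 log2 in the TSC22D4 group, against 7.67, 7.68 and 8.08 in the LCN13 group and 8.34, 8.52 and 8.18 in controls. TSC22D4 against LCN13, Cth rose by 1.24 (SE 0.22, limma adjusted p = 0.0381). That call was lost in 7 of 12 fits without 1 array (limma adjusted p up to 0.139). Among them were those without LCN13 replicate 5 or 6 or any TSC22D4 array. The arrays of the 2 groups alone also ended it (limma adjusted p = 0.0511). Of 17 genes of NADPH supply 1 (5.88%) passed, in the combined group against control, against 1.34% of all genes. Idh1, the cytosolic isocitrate dehydrogenase, rose there by 0.20 (SE 0.04, limma adjusted p = 0.047). Its call was lost in 10 of 12 fits without 1 array (limma adjusted p up to 0.133). It was also lost with trend and robust moderation, array weights, the dim filter or cyclic loess (limma adjusted p up to 0.112). With the 2 groups alone limma adjusted p was 0.21. Against control, an unadjusted p under 0.05 came for 7 (41.2%) with TSC22D4 shRNA, 2 (11.8%) with LCN13 shRNA and 3 (17.6%) with both. Of all genes 11.8%, 12.6% and 11.0% had one. In TSC22D4 against LCN13, 7 (41.2%) had such a p, against 17.7% of all genes. The median of the NADPH list was 0.14 with TSC22D4 shRNA, 0.06 with LCN13 shRNA and 0.12 with both.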

How the data were processed

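RNA of abdominal fat from 12 mice was hybridised to Affymetrix arrays after biotin labelling, per the labels' protocols. The authors deposited 1 log2 value per probe set and array, made with RMA per the submitters' processing notes; version, settings, probe set definitions and build are details not given in the sources used here. Sorted values of any 2 arrays lay within 0.00188, so all share 1 distribution, which removes changes common to most genes. Of 25206 probe sets, 23185 had 1 symbol and were tested, with no filter on dim ones. Names and promoters came from RefSeq tables of GRCm38.p6.

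Genes were tested with limma 3.58.1 under R 4.3.3, using 1 mean per group over 12 arrays, giving 8 residual degrees of freedom, two-sided, with Benjamini-Hochberg adjustment over all genes within each of 8 comparisons and a threshold of 0.05. The fit was tested on simulated data. The number of arrays limits the precision. Replicates are separate animals per the labels, and no batch is given.

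The members and lists were chosen with earlier results of these data known. Named were members passing in any comparison, the 11 single genes, and per family the 2 with the smallest F test p, the brightest and the dimmest; other members, such as Gstm7, Gpx5 and Gpx8, were named after their values were seen. From other lists up to 4 passing genes were named. Lists got no test. Alternatives are given in the closing section.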

Additional observations from a re-analysis of the deposited data

How the results depend on the processing

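No call changed sign in any alternative. Among values that did not pass, 388 did, with a median size as reported of 0.0165 log2. The one with the largest value as reported was Gpx5 in TSC22D4 against LCN13, at 1.67, and -0.20 without TSC22D4 replicate 11; in the combined group against TSC22D4 Gpx5 was at -0.62, 1.25 without that array and 0.21 without combined-group replicate 13 as well. No paired analysis was possible because the groups share no replicate numbers. Members passing in TSC22D4 against control numbered 1 as reported, 2 with trend and robust moderation, and 0 with the arrays of the 2 groups alone or cyclic loess (with the dim filter 1, Mgst3 in place of Gstz1); all genes passing were 272, 447 with array weights and 142 with the arrays of the 2 groups alone. In LCN13 against control members were 1, 4 with array weights, and 0 with the 2 groups alone, the filter on dim probe sets (which removes Slc7a11) or without LCN13 replicates 5 and 6; genes were 333, 680 with weights, 102 with the 2 groups alone and 100 without replicates 5 and 6. In the combined group against control genes were 311, 518 with weights and 126 with the 2 groups alone. In the combined group against LCN13 genes were 2, 8 with trend and robust moderation, 14 with weights, 0 with the 2 groups alone, 7 with the dim filter, 8 with cyclic loess and 0 without replicates 5 and 6. In TSC22D4 against LCN13 members were 2, 8 with weights and 1 with the 2 groups alone, Gclc in place of Gsta4 and Gstt1. Genes were 239, 1178 and 75 in that order. Interaction genes were 92, and 35 without replicates 5 and 6. In the F test members were 1, 3 with trend and robust moderation, 5 with weights, 2 with the dim filter, and 0 with cyclic loess or without replicates 5 and 6; genes were 374, 935 with weights and 171 without replicates 5 and 6.

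Leaving out TSC22D4 replicate 11 and combined-group replicate 13 together, chosen after seeing the data, gave 0 members in TSC22D4 against control, LCN13 against control, TSC22D4 against LCN13 and the F test. Genes were then 136 in TSC22D4 against control, 137 in the combined group against control, 0 in the combined group against LCN13, 1 in the combined group against TSC22D4, 10 in TSC22D4 against LCN13, 39 in the interaction and 155 in the F test. Leaving out each array in turn gave 0 to 2 members in TSC22D4 against control, 0 to 2 in LCN13 against control, 0 to 6 in TSC22D4 against LCN13, 0 to 1 in the interaction and 0 to 4 in the F test, and 0 in the other comparisons. Genes ranged from 153 to 350 in TSC22D4 against control, 205 to 426 in LCN13 against control, 165 to 376 in the combined group against control, 0 to 94 in the combined group against LCN13, 0 to 4 in the combined group against TSC22D4, 2 to 582 in TSC22D4 against LCN13, 47 to 104 in the interaction and 209 to 531 in the F test. TSC22D4 against LCN13 fell to 2 genes without LCN13 replicate 5. Fits with fewer arrays have fewer degrees of freedom; other causes were not tested. Without LCN13 replicates 5 and 6, 1 LCN13 array is assumed to vary like the other groups. The interaction and F test have no fit on 2 groups. Scanner data were not used here, so background correction was not varied. Probe sets near the lower end of the scale limit Slc7a11 and the 6 other dim members.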

Other observations

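Of 21 genes of oxidant-producing enzymes, 1 (4.76%) passed, in TSC22D4 against control, against 1.17% of all genes. Maob, the monoamine oxidase B of the outer mitochondrial membrane, which releases hydrogen peroxide, lay at 9.97, 9.78 and 9.89 log2 in the combined group, 9.99, 9.90 and 9.95 in the TSC22D4 group and 9.58, 9.57 and 9.56 in the LCN13 group, against 9.71, 9.54 and 9.34 in controls. The combined and TSC22D4 arrays were all above the controls, and the LCN13 arrays lay within the range of the controls. With TSC22D4 shRNA Maob rose by 0.42 (SE 0.08, limma adjusted p = 0.0473). The call was lost in 11 of 12 fits without 1 array (limma adjusted p up to 0.164) and held without control replicate 1. It was lost too with cyclic loess (limma adjusted p = 0.0671) and with the arrays of the 2 groups alone (limma adjusted p = 0.194). The other 20 genes of this list, among them the subunits of the phagocyte NADPH oxidase that were measured, did not pass in any comparison with limma, and the median of the list was -0.01 with TSC22D4 shRNA, -0.05 with LCN13 shRNA and -0.03 with both.

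Markers of pancreatic acinar cells, measured in 13 genes, had a mean of 6.01 to 6.08 log2 on all arrays, and 12 of them lay at or under the median of all probe sets. Macrophage markers, measured in 18 genes, had a mean of 10.22 to 10.35 log2 in the combined group, 10.27 to 10.48 in the TSC22D4 group and 10.24 to 10.26 in the LCN13 group, against 10.30 to 10.63 in controls.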
